A study of Mus musculus with 12 samples.

Results

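Gene-end peaks are the accessible sites of the master peak-list that lie at the 3′ ends of genes. They were chosen by position alone, as peaks whose centre was more than 500 bp from the nearest transcription start site (TSS) and that HOMER annotated either to a transcription termination site (TTS) or to a 3′ untranslated region (3′ UTR). Of the 84243 peaks in the list, 2268 (2.69%) met this rule, which is 3.19% of the 71072 non-promoter peaks. The TTS class held 1298 of them (57.2%) and the 3′ UTR class 970 (42.8%).

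The list comes from ATAC-seq, in which a transposase cuts DNA that nucleosomes leave exposed, on 12 samples of sorted blood cells from wild-type C57BL/6 mice aged 8 to 12 weeks. There were 2 replicates each of hematopoietic stem cells (HSCs), megakaryocyte progenitors (MkPs), erythroid progenitors (EPs), granulocyte/macrophages (GMs) and B cells from bone marrow, and of T cells from thymus. The mice carried no transgene or treatment in the sample labels. The groups differed in cell type, and the T cells also in tissue of origin. The 12 samples were merged by the authors into 1 list that records neither the cell type in which a peak was called nor its reads, so depth is unknown, no value has a replicate error, and cell types could not be compared.

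The 3′ end of a gene is where a messenger RNA is cut and given its poly(A) tail, usually a short way after the signal AATAAA, while RNA polymerase II runs on past the cut before it lets go of the DNA. The 3′ UTR is the stretch of the last exon between the stop codon and that cut, and in the RNA it holds binding sites for microRNAs and RNA-binding proteins. In the DNA, 3′ ends and the sequence just beyond them can also hold enhancers, silencers and sites for CTCF, the zinc finger protein that anchors chromatin loops and separates neighbouring domains. HOMER assigns a peak to the TTS class when its centre falls from 100 bp before to 1000 bp after the end of a transcript, and looks for this class before it looks for UTRs. A TTS peak is therefore mostly a peak beyond the gene, and a 3′ UTR peak one inside it.

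The sequence feature in which gene-end peaks stood furthest from intron and intergenic peaks in relative terms, among 13 strings searched, was the core consensus of CTCF, which was present without a mismatch in 304 of them. The 7 sites that fell in the genes named below are shown to let the shared core be read across loci that are otherwise unrelated. Each window of 30 bases is read 5′ to 3′ on the strand of the site, with the CTCF core in capitals, from the reference genome (GRCm38, named mm10 in the list).
Ebf1, chr11:45008296-45008325, plus strand: gtactgctgCCCTCTGCTGGcatgagccag
Blk, chr14:63372678-63372707, plus strand: gtgagatcgCCACCTGCTGGccaggaaaga
Bach2, chr4:32586782-32586811, minus strand: gcatgcctgCCCTCTGCTGGtagttcccgt
Lmo2, chr2:103982410-103982439, plus strand: cttcaagcgCCACCTGCTGGtcattcctca
Nfix, chr8:84704583-84704612, plus strand: tcatcggcgCCCCCTGCTGGaggcgggaag
Map3k20, chr2:72390166-72390195, plus strand: tgccctacgCCATCTGCTGGtgataaggca
Vipr1, chr9:121671525-121671554, plus strand: tctctatcgCCATCTAGTGGgcacttcaaa
The Vipr1 site lay in a 3′ UTR and the other 6 lay in TTS peaks. The Ebf1, Lmo2, Map3k20 and Vipr1 sites read in the direction of their host gene, and the Blk, Bach2 and Nfix sites read against it. The centres of the 7 cores were 5 to 60 bp from the centres of their peaks.

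Strings of blood transcription factors are shown for some of the genes named below, as examples of what a gene-end peak holds. The windows show the GATA string AGATAA, bound by GATA1 and GATA2 in erythroid and megakaryocytic cells, in capitals at 3 genes of the erythroid list, 1 of the HSC list and 1 of the megakaryocyte list.
Hbb-bs, chr7:103826136-103826165, plus strand: ggatttatgaaaAGATAAataatgttgctt
Hbb-bt, chr7:103812539-103812568, plus strand: atatcatttattAGATAAaagctagatgcc
Bcl11a, chr11:24174157-24174186, minus strand: ccatcgacaagcAGATAAaacaatgcacat
Lmo2, chr2:103982390-103982419, minus strand: gcgcttgaagtcAGATAAcgcccccgatgg
Clec1b, chr6:129406261-129406290, minus strand: agtcctcagctgAGATAAactatgttcatg
A further set from T cell and granulocyte genes shows the RUNX string ACCACA at Cd3d and Cd2, the AP-1 string TGANTCA in the other Cd3d peak, and the C/EBP string TTGNGNAA at Ngp.
Cd3d, chr9:44986664-44986693, plus strand: ttttgctgccttACCACAgcccaaagcagg
Cd3d, chr9:44987064-44987093, plus strand: gcagtgttgccTGACTCAcacggtggaaat
Cd2, chr3:101274913-101274942, minus strand: ctctgagggtaaACCACAaagactgaatat
Ngp, chr9:110423793-110423822, plus strand: actgtttgtgaTTGTGTAAggtcttgcttc
These strings are short and common in all classes of peak, as the shares given further on show, and a match is a description of the sequence, not a bound site. In the 25 gene-end peaks of the blood gene lists described below, GATA was in 5, RUNX in 12, AP-1 in 4 and C/EBP in 8. Over all gene-end peaks the shares were 23.7%, 40.3%, 14.1% and 24.2%. RUNX was also found at Bach2 and Lyz2, and C/EBP at Lmo2 and Sptb. The erythroid genes Slc4a1 and Sptb held no GATA string.

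Around the 3′ ends of 21000 protein-coding genes, peaks were scarce just before the transcript end and denser on both sides. All non-promoter peaks were placed relative to 1 curated RefSeq end per gene, without use of the HOMER class. In the 100 bp before the end there were 36 peak centres, or 1.71 per 100 bp per 1000 ends. The 100 bp before that held 90 centres, the first 100 bp past the end 76, and the next 100 bp 112. Between 200 and 1000 bp past the end the density was 5.59 per 100 bp per 1000 ends (939 peaks), and the 8 bins there held 100 to 155 centres each. Inside the gene, from 1000 to 200 bp before the end, it was 4.88 (820 peaks, 81 to 124 per bin).

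Base composition moved with the peak count at the transcript end. The mean G+C content of the reference was 37.2% in the 100 bp before the end, 44.2% in the 100 bp before that and 42.8% in the first 100 bp past it, against 45.1% from 200 to 1000 bp past it. Its part in the low peak count was not tested. Farther away, the density was 5.43 per 100 bp per 1000 ends from 1000 to 3000 bp past the end and 4.33 over the same distance inside the gene, so the level beyond the end was close to that within the TTS window.

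**Figure D1:**
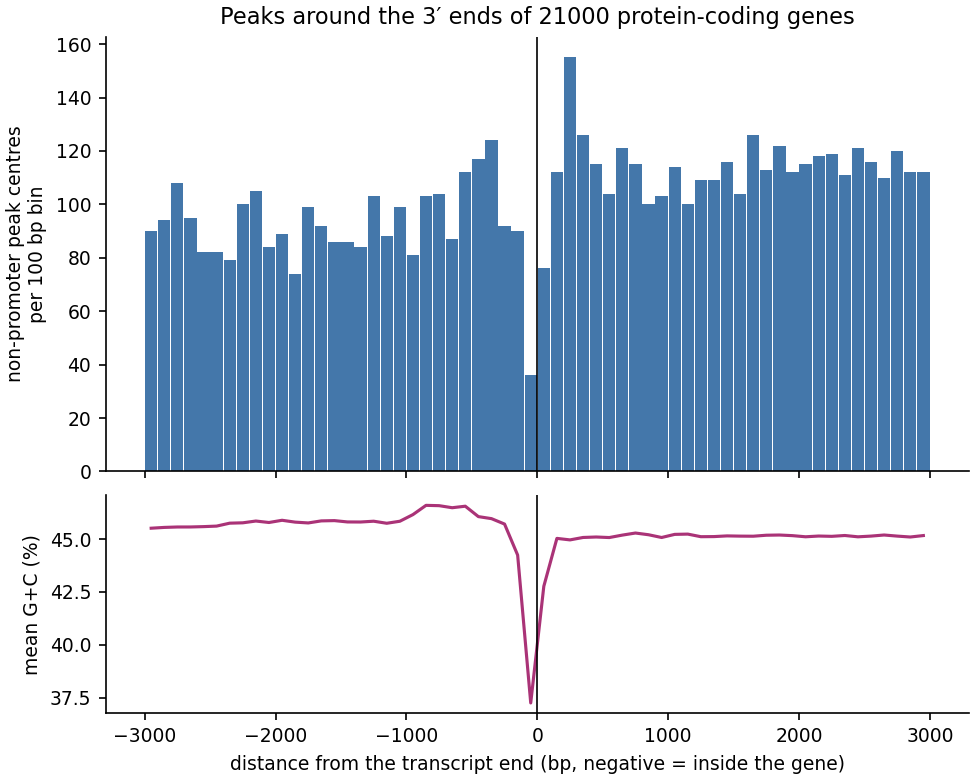
Non-promoter peak centres in bins of 100 bp from 3000 bp before to 3000 bp after the 3′ ends of 21000 protein-coding genes (upper bars), and the mean G+C content of the reference in the same bins (lower line, axis not starting at 0). The bin just before the end holds 36 peaks and has 37.2% G+C, the lowest of both measures.

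Within the TTS class, peaks sat beyond the gene. The peak centre was downstream of the end of the transcript that HOMER names in 1240 of 1298 TTS peaks (95.5%), at a median of 478 bp past it (quartiles 244 and 730 bp). In 40 peaks the centre lay in the 100 bp before the end, in 75 in the first 100 bp past it, in 1161 from 100 to 1000 bp past it, and in 22 outside the window by the RefSeq coordinates used here. The window itself fixes most of this spread, because it reaches 1000 bp beyond the end but only 100 bp into the gene.

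Peaks of the 3′ UTR class had a median position of -1035.5 bp relative to the transcript end, where negative values lie inside the gene. The centre of 968 of the 970 fell inside the UTR of the named transcript. When each UTR was cut into 4 equal pieces from the stop codon to the end, the peaks numbered 279, 282, 258 and 149, with the fewest in the last piece, some of which the TTS class takes. The UTRs that held a peak were long, with a median of 2309 bp against 682 bp over all protein-coding genes. The share of genes with a 3′ UTR peak was 0.368% for UTRs of up to 283 bp, 2.03% for 284 to 775 bp, 4.89% for 776 to 1743 bp and 11.3% for those of 1744 bp or more. Per megabase of UTR, however, the upper 3 of these groups held 40.3, 41.1 and 39.5 peaks, against 25.1 in the shortest group, which had only 18 peaks. The TTS class takes the last 100 bp of a UTR, which is a large part of a short one. The share and density of the shortest group therefore cannot be compared with those of the others. TTS peaks, most of which lie past the end of the UTR, were found at 5.22, 5.56, 5.94 and 6.04% of the genes of the same 4 groups.

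Counted per length of genome, the gene end was about as rich in peaks as other exons. The 28.2 Mb of gene-end windows held 49.8 peaks per Mb and the 21.05 Mb of 3′ UTR held 47.6. This compares with 52.0 in exons outside UTRs, 36.4 in introns, 19.9 in intergenic sequence, 137 in 5′ UTRs and 487 within 500 bp of a TSS. Gene-end windows were thus 2.50 times and 3′ UTRs 2.39 times as dense as intergenic sequence. Building the set from curated RefSeq coordinates in place of the HOMER classes gave 2405 peaks, of which 2244 were shared, making up 98.9% of the gene-end peaks and 93.3% of the RefSeq set.

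Gene-end peaks belonged to 2093 genes, most of them protein-coding. The host gene was protein-coding for 2111 peaks (93.1%), a long non-coding RNA for 119, a microRNA for 29, a transcribed pseudogene for 8 and another RNA for 1. Of the 21000 protein-coding genes, 1938 (9.23%) hosted a gene-end peak. Among them 1780 had 1 such peak, 143 had 2 and 15 had 3. Hosts were longer than other genes, with a median length of 23.6 kb against 17.2 kb, and genes with a single exon made up 3.20% of hosts and 10.9% of the rest.

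Peaks at the end of a gene were often closer to the start of another gene. For 1170 gene-end peaks (51.6%, 95% Wilson interval 49.5 to 53.6%) the nearest promoter in the list was not that of the host. All intervals here cover counting error only, and peaks and genes are not independent of their neighbours. The share was 56.0% in 3′ UTR peaks (52.8 to 59.1%) and 48.3% in TTS peaks (45.6 to 51.0%). The other promoter belonged to a protein-coding gene in 958 cases and to a non-coding RNA in 191. In these 1170 peaks the median distance was 10199 bp to the nearest TSS but 35303 bp to the TSS of the host. A target gene assigned by nearest promoter therefore differed from the host gene, at whose end the peak lay, for about as many peaks as it matched. The rule had removed peaks within 500 bp of a TSS in the list, and intron and intergenic peaks were limited in the same way. A low share at other starts is therefore largely fixed by the rule. With predicted RefSeq transcripts included, 43 gene-end peaks (1.90%) lay within 500 bp of a TSS, against 3.54% of intron and 4.63% of intergenic peaks.

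Genes with a gene-end peak had a promoter peak in the list more often than other genes. A promoter peak, centred within 500 bp of a TSS and named for the gene, was present in 1360 of 1938 hosts (70.2%, 68.1 to 72.2%) and in 10158 of 19062 other protein-coding genes (53.3%, 52.6 to 54.0%), a difference of 16.9 points (95% Newcombe interval 14.7 to 19.0). Longer genes had more peaks of both kinds, so the comparison was repeated within 4 groups of gene length, each with 1 in 4 of all genes. The difference was 27.5 points in the shortest group (56.4% against 28.9%, interval of the difference 21.5 to 33.3), 13.5 in the next (9.07 to 17.7), 8.57 in the third (4.46 to 12.4) and 8.90 in the longest (76.5% against 67.5%, 5.11 to 12.4). All 4 intervals lay above 0. Since all 6 cell types are merged, a promoter peak and a gene-end peak of 1 gene need not come from the same cells.

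**Figure D2:**
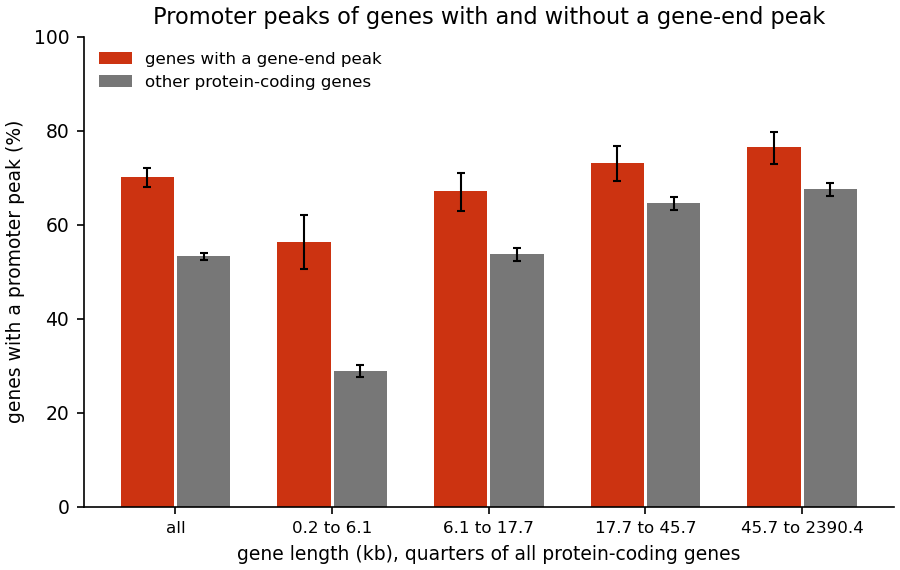
Share of protein-coding genes with a promoter peak, in percent, for genes with (red) and without (grey) a gene-end peak, over all genes and in 4 groups of gene length. Bars carry 95% Wilson intervals, and the hosts stand above the other genes in each group, by 27.5 points in the shortest and 8.90 in the longest.

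The next gene along was slightly more often close to the end of a host. Within 10 kb, 462 hosts (23.8%) faced a protein-coding gene that runs towards them, a convergent pair, compared with 19.9% of other genes (difference 3.90 points, interval 1.97 to 5.93). A tandem neighbour, which starts downstream in the same direction, was found for 20.02% against 17.6% (2.44 points, 0.63 to 4.36). An overlapping gene was found for 9.24% against 10.2% (-1.004 points, -2.29 to 0.43), an interval that includes 0. In TTS peaks the CTCF consensus was present at 15.5% of convergent, 14.8% of tandem, 17.8% of overlapping and 15.7% of isolated ends, and the interval of each difference from isolated ends included 0. In 3′ UTR peaks the shares were 15.8% at convergent (34 of 215 peaks), 13.0% at tandem, 5.19% at overlapping (4 of 77 peaks) and 9.78% at isolated ends (49 of 501 peaks). There the convergent share was 6.03 points above the isolated one (0.86 to 11.97), while the intervals of the tandem and overlapping differences included 0. These 6 differences were computed after the shares had been seen.

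The CTCF consensus, matched exactly, was more frequent in gene-end peaks than in intron, intergenic and exon peaks. It was present in 13.4% of gene-end peaks (12.1 to 14.9%), 7.72% of intron peaks, 9.68% of intergenic peaks, 7.33% of other exon peaks and 1.99% of promoter peaks. The difference from intron peaks was 5.68 points (4.31 to 7.17), from intergenic peaks 3.72 points (2.34 to 5.22) and from exon peaks 6.08 points (4.12 to 7.97). With 1 mismatch allowed, the difference from exon peaks was 2.41 points with an interval that includes 0 (-0.74 to 5.53). TTS peaks held it in 14.9% (194 peaks) and 3′ UTR peaks in 11.3% (110 peaks), which differ by 3.61 points (0.78 to 6.36). Placed by distance and without the HOMER class, non-promoter peaks 200 to 1000 bp past a gene end held it in 16.4% (14.2 to 18.9%), those 1000 to 3000 bp past it in 13.2% (11.8 to 14.6%) and those 1000 to 200 bp before it in 12.3% (10.2 to 14.7%).

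The CTCF difference was also read among peaks of like base composition and like distance from a TSS, because gene-end peaks are richer in G+C and nearer to starts than intron peaks. These bands were chosen after the data had been seen. Between 45 and 50% G+C the consensus was in 12.7% of gene-end, 7.15% of intron and 9.05% of intergenic peaks, and between 50 and 55% in 15.8, 8.66 and 10.9%. Over the 4 bands from 40 to 60% G+C, the difference from intron peaks ran from 2.74 to 7.13 points with each interval above 0, and that from intergenic peaks from 0.27 to 5.36 points with an interval that includes 0 in the band of 40 to 45%. By distance, gene-end peaks 1 to 5 kb from a TSS held the consensus in 14.4%, against 6.99% of intron and 11.9% of intergenic peaks. There the difference from intergenic peaks was 2.48 points with an interval of -0.39 to 5.76. At 20 to 50 kb the intervals of both differences included 0, with 10.3% of 437 gene-end peaks holding the consensus.

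The CTCF cores sat near the middle of the peaks. There were 309 cores in the 304 peaks, with a median offset of 17 bp to the centre of the peak, and 259 (83.8%) were within 50 bp of it. Of the 309, 48.2% read in the direction of the host gene (42.7 to 53.8%), with 43.1% (36.4 to 50.1%) in TTS peaks and 57.1% (47.9 to 65.9%) in 3′ UTR peaks. Each of these intervals includes 50%.

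Other consensus strings differed from intron peaks by a few points in either direction. The E-box CAGGTG, a site of E proteins such as E2A and of their repressors of the ZEB and SNAI families, was in 38.9% of gene-end and 32.8% of intron peaks (6.08 points, 4.03 to 8.16). The GC box GGGCGG of SP and KLF factors was in 17.8% and 13.4% (4.36 points), and the ETS variant CGGAAG in 13.5% and 10.7% (2.78 points). Other strings were less frequent than in intron peaks: the difference was -3.91 points for GATA (23.7% against 27.6%), -3.41 for RUNX (40.3% against 43.7%), -3.51 for the ETS string AGGAAG (62.5% against 66.0%) and -2.70 for AP-1 (14.1% against 16.8%). For the PU.1 form of the ETS string, with a G before and a T after it, it was -2.09 (8.20% against 10.3%). The intervals of these 5 differences lay below 0. Against intergenic peaks the RUNX difference was -1.95 points with an interval that includes 0 (-4.03 to 0.15). Exon peaks held 4 of these strings less often than gene-end peaks did, with differences of 8.21 points for GATA, 4.48 for RUNX, 3.53 for AGGAAG and 4.34 for AP-1. They held GGGCGG (32.7%) and CGGAAG (21.9%) more often than gene-end peaks. CAGGTG was in 41.1% of exon peaks, and the interval of its difference from gene-end peaks included 0. PU.1 is the ETS factor of myeloid and B cells, and its string is counted within AGGAAG as well. Against intron peaks, the intervals of the C/EBP string TTGNGNAA and of CCAAT, the NF-Y string, included 0. Their differences from intergenic peaks were -2.65 points (-4.44 to -0.78) and -3.82 points (-5.93 to -1.70). Those from exon peaks were 5.92 points (3.27 to 8.52) and 7.55 points (4.36 to 10.7). All strings were searched on both strands. Only the CTCF difference was read within bands of G+C content, so the part of base composition in these other differences was not tested.

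The poly(A) signal AATAAA was not concentrated in the centre of gene-end peaks. It was in 39.1% of whole peaks and 35.9% of intron peaks (3.12 points, 1.07 to 5.21), but in the central 200 bp the shares were 11.1% and 10.9% and the interval of the difference included 0. Peak position fixes much of this. With median centres 478 bp past the end in TTS peaks and at -1035.5 bp in 3′ UTR peaks, the signal of the host mostly falls outside the central 200 bp. The E-box CAGCTG differed from intron peaks by 2.31 points over whole peaks and by 0.85 in the central 200 bp, where the interval included 0. Whole exon peaks held CAGCTG more often, in 42.1% against 32.9% of gene-end peaks.

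**Figure D3:**
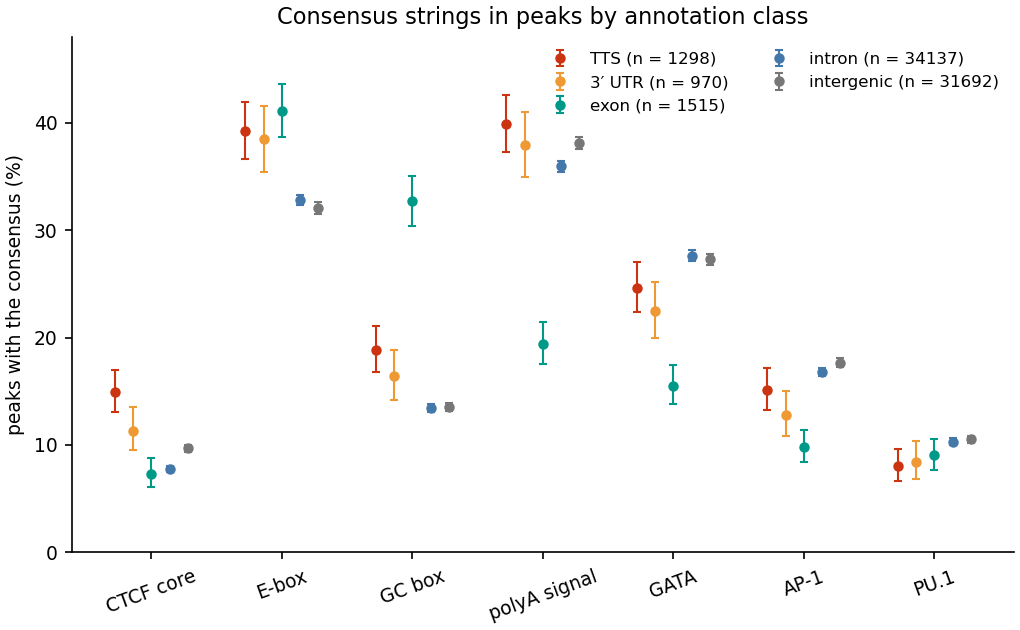
Share of peaks with each consensus string, in percent with 95% Wilson intervals, for TTS, 3′ UTR, exon, intron and intergenic peaks. The CTCF core is highest in the TTS class (14.9%), while the GATA, AP-1 and PU.1 strings are lower in both gene-end classes than in intron and intergenic peaks.

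In base composition gene-end peaks lay between intron and exon peaks. Their median G+C content was 49.7% (quartiles 45.3 and 53.7%), with 47.7% in intron, 47.1% in intergenic, 55.9% in exon and 63.3% in promoter peaks. Peaks over 60% G+C made up 4.59% of gene-end, 3.13% of intron and 32.3% of exon peaks. The centre fell on a base that the reference marks as repeat in 7.76% of gene-end peaks (8.94% of TTS and 6.19% of 3′ UTR peaks). The share was higher in intron (10.5%) and intergenic peaks (11.2%) and lower in exon (3.17%) and promoter peaks (4.66%). This measure was added after the data had been seen, because the detailed HOMER annotation names no repeat or CpG island for these classes. Another peak was centred within 5 kb of 58.1% of gene-end peaks, with 60.4% for the TTS and 54.9% for the 3′ UTR class, against 54.1% of intron and 49.7% of intergenic peaks.

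Genes that define the sampled blood lineages hosted 25 gene-end peaks. Of 139 genes in 6 lists of blood cell genes, 24 (17.3%) were hosts, next to 9.23% of all protein-coding genes. A promoter peak was present in 109 of the 139. Over all protein-coding genes, 70.2% of hosts and 53.3% of the others had a promoter peak. The lists held 3 hosts of 24 genes for HSCs, 3 of 22 for MkPs, 5 of 23 for EPs, 5 of 23 for GMs, 5 of 23 for B cells and 3 of 24 for T cells. A list of 22 genes of other tissues had 1 host, Myod1, and 3 genes with a promoter peak. These counts describe lists chosen with results of these data known, and they carry no test. Because the samples are merged, none of the peaks below can be assigned to a cell type.

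Of the 25 peaks, 19 were in the TTS class and 6 in the 3′ UTR class. Among the HSC genes, Lmo2, the adaptor that bridges GATA and TAL1 proteins, had a peak 492 bp past its end that held the CTCF and GATA sites shown above. Procr, the endothelial protein C receptor used to mark HSCs, had one 447 bp past its end, and Erg, an ETS factor needed for HSC maintenance, had one in its 3′ UTR, 1474 bp before the end. Among the megakaryocyte genes, Pf4, a platelet chemokine, had a peak 683 bp past the end, and Clec1b, the podoplanin receptor of platelets, had one 788 bp past its end with 33.5% G+C, the lowest of the 25 peaks. Itgb3, the β3 subunit of the platelet fibrinogen receptor, had its peak in the 3′ UTR, in exon 15 of 15 and 2849 bp before the end.

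The erythroid hosts were structural genes of the red cell and a globin regulator. The adult β-globin genes Hbb-bs and Hbb-bt had peaks 459 and 174 bp past their ends, each with 34.7% G+C and a GATA string. For both, the transcript named by HOMER was not on the chromosomes of the RefSeq release used, so the nearest curated end was taken. They are near-identical copies, and reads that map to more than 1 place had been left out, so their peaks are uncertain. Slc4a1, the band 3 anion exchanger, had a peak 625 bp past its end, and Bcl11a, a repressor of embryonic globin genes, had one 771 bp past its end. The peak of Sptb, the erythroid β-spectrin, lay in exon 36 of 36, 2561 bp before the end, and the nearest promoter was that of AI463170, 35124 bp away.

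The 5 GM hosts had TTS peaks without exception. The peak of Fcgr3, an activating Fc receptor, was 268 bp past the end and held 2 AP-1 strings. The peaks of S100a9, a calcium-binding protein abundant in neutrophils, and of Cebpd, a C/EBP factor, were 320 and 570 bp past the end. Lyz2, lysozyme, followed with 683 bp, and Ngp, the neutrophilic granule protein, with 818 bp. The Ngp peak held the C/EBP string shown above, 22 bp from its centre.

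B cell hosts included the 3 blood-list genes with a CTCF core other than Lmo2. In all, 4 of the 25 blood-list peaks held a core, near the share in all gene-end peaks (13.4%) and TTS peaks (14.9%). The counts are too small to compare lists. Ebf1, which specifies the B lineage, had its peak 154 bp past the end, and the nearest promoter was not its own but that of Gm12159, 108678 bp away. Blk, a SRC-family kinase of B cells, had its peak 139 bp past the end, and Bach2, a repressor of plasma cell genes, 641 bp past. Vpreb3, a protein of the pre-B cell receptor pathway, had a peak 166 bp past its end, and Pou2af1, the B cell coactivator of octamer factors, one 1009 bp before its end in the 3′ UTR.

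Among T cell genes Cd3d, a subunit of the T cell receptor complex, was the only host of 2 peaks in the 6 blood lists. The centres lay 449 bp before and 144 bp after its end, the former with 2 RUNX strings and the latter with an AP-1 string. Cd2, an adhesion receptor, had a peak 940 bp past its end with 1 RUNX string, and Thy1, a surface glycoprotein of thymocytes, had one in its 3′ UTR, 776 bp before the end. Myod1, the muscle regulator from the list of other tissues, also had a pair, 677 bp before and 109 bp past its end, and no promoter peak.

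Some of these hosts, like hosts in general, had no promoter peak in the list. The list was filtered to non-overlapping peaks, so a gene without a promoter peak may still have an accessible promoter. By the columns of the list 16 of the 24 blood hosts had a promoter peak, next to 70.2% of all hosts. By any curated RefSeq TSS of the gene the share of all hosts was 75.6%. Of the blood hosts 18 then had one, because Hbb-bs and Hbb-bt were added. The 6 without one were Procr, Clec1b, Ebf1, Bach2, Cd3d and Thy1. For 4 hosts, Ebf1, Bach2, Clec1b and Sptb, the peak was nearest to a promoter other than that of the host. Over all gene-end peaks this share was 51.6%. Bach2os, an antisense transcript, was 15087 bp from the Bach2 peak, and Clec9a, which follows Clec1b in the C-type lectin cluster, was 2661 bp from the Clec1b peak.

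**Figure D4:**
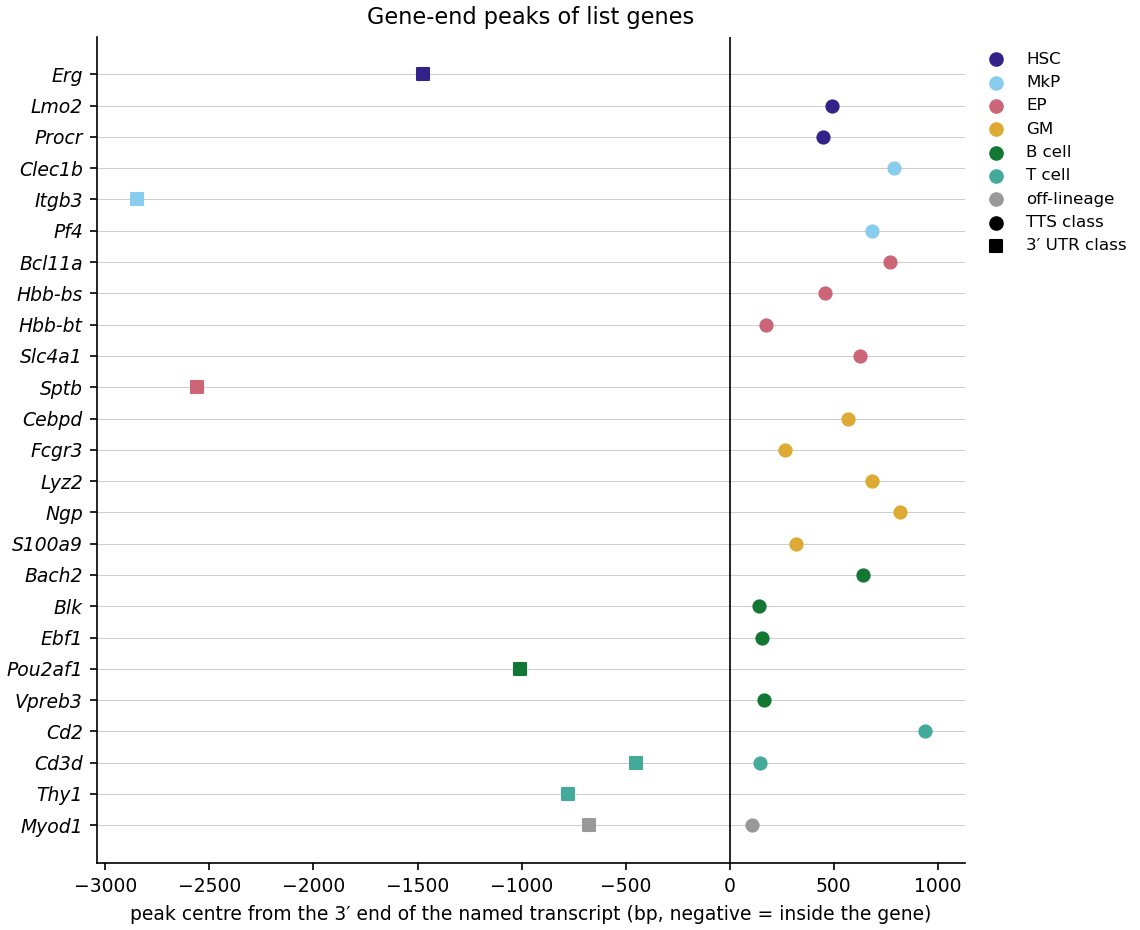
Position of each gene-end peak of a list gene relative to the 3′ end of the named transcript, in bp, with 1 row per gene and colours for the lists. Circles are TTS peaks and squares 3′ UTR peaks, and 19 of the 25 peaks of blood genes are TTS peaks, from 139 bp (Blk) to 940 bp (Cd2) past the end.

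Among the 15 genes with 3 gene-end peaks, 11 had peaks both before and past a transcript end. The 45 peaks comprised 14 TTS and 31 3′ UTR peaks, and 30 of the 45 were nearest to the promoter of another gene. These 30 peaks belonged to 10 of the 15 genes. Peaks of the same gene share their surroundings, so the 30 are not independent. Over all gene-end peaks the share nearest to another promoter was 51.6%, and in 3′ UTR peaks it was 56.0%. In 11 of the 15 genes a promoter peak was present, next to 70.2% of all hosts, with none at D430019H16Rik, Kif5a, Mical3 and Prlr. Vsir, the immune checkpoint receptor VISTA, had 3 peaks in its 3′ UTR, 3093, 1804 and 883 bp before the end.

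The 3 peaks of Nfix, a nuclear factor I protein active in HSCs, lay 3057 and 2258 bp before and 102 bp past its end, and the nearest promoter for each was that of Lyl1, a bHLH factor of blood progenitors, at 3153 to 6312 bp. The peak past the Nfix end held the CTCF core shown above. Map3k20, a stress-activated kinase, had peaks at the ends of several transcripts, 1 of them with a CTCF core 29 bp from its centre. The vasoactive intestinal peptide receptor gene Vipr1 had peaks 3383 and 1420 bp before and 715 bp past its end, and the middle one held its CTCF core 5 bp from the centre. Slc23a2, a vitamin C transporter, had peaks 3007 and 1520 bp before and 461 bp past its end, each nearest to the promoter of Rassf2, 22047 bp or more away.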

How the data were processed

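ATAC-seq was done on 12 samples, 2 replicates of each of 6 cell types. The authors aligned reads to mm10 with the ENCODE ATAC-seq pipeline, left out multimapping reads, took the optimal peak-list of the Irreproducible Discovery Rate analysis for each cell type, concatenated the lists, kept non-overlapping peaks with chromVAR and annotated them with HOMER 4.10.2. All 84243 peaks carry a score of 0 in the deposited list, which was not used. Positions, classes and distances to the TSS were used as deposited, in bp. Each peak spans 499 bp.

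Gene-end peaks were chosen by class and distance to the TSS as given in the list. The transcript named by HOMER was looked up among curated transcripts of RefSeq release 108 of GRCm38, which gave the host gene of 2259 peaks. For the other 9, the nearest curated end was used, a choice made after the data were seen. The limit of 500 bp left out 84 TTS peaks. The nearest peak kept was 504 bp from a TSS (host Mir1895) and the nearest left out 496 bp (Mir33). Peak density was measured over 21000 protein-coding genes with 1 transcript end each. Strings were matched exactly on both strands of the reference sequence. Shares have 95% Wilson intervals and differences of shares 95% Newcombe intervals. Both cover counting error only. No test was made, because the list has no values per sample. Named genes were the hosts in 7 gene lists and the hosts tied for the most gene-end peaks. A gene under this rule is not reported here. The members and lists were chosen with earlier results of these data known. Alternatives concerned the distance limit, the class definition, the chromosomes, the promoter and neighbour distances, the mismatch allowed and the part of the peak searched. The string search and the intervals were tested on simulated data. The tools were statsmodels 0.14.6, matplotlib 3.10.9, pandas 2.3.3, numpy 2.4.6 and Python 3.11.15.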

Additional observations from a re-analysis of the deposited data

How the results depend on the processing

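No paired analysis was possible because the list is pooled over all samples and holds no values per replicate. For the same reason no replicate could be left out, and depth limits no value in a way that can be measured. The number of gene-end peaks was 2211 with a limit of 1000 bp from a TSS, 2352 without a limit, 2240 on the autosomes and 2405 by RefSeq coordinates. The share of hosts with a promoter peak was 74.3% within 1000 bp and 75.6% at any curated TSS of the gene, while its difference from other genes was 16.7 to 17.9 points under these choices. The share with the CTCF consensus was 38.3% when 1 mismatch was allowed, and the difference from intron peaks was 5.57 to 9.73 points over the alternatives. Peaks over 60% G+C made up 8.02% in the central 200 bp, and 80.6% of gene-end peaks had another peak within 10 kb. The cause of these moves was not tested. With 1 mismatch allowed, the interval of the CTCF difference from exon peaks included 0. No result changed direction under the alternatives run.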

Other observations

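MicroRNA genes hosted 29 gene-end peaks, each of the TTS class and each at a different gene. Their centres lay 400 to 961 bp past the end of the hairpin, with a median of 674 bp, and the limit of 500 bp from a TSS sets the lower end of that range because hairpins are short. Among them were Mir124a-3 and Mir9-2, members of families best known from neurons, at 874 and 942 bp, and Mir141, of the miR-200 family known from epithelia, at 882 bp. A CTCF core was present in 4 of the 29 peaks, those of Mir124a-3, Mir141, Mir1928 and Mir6999. This is close to the share in all gene-end peaks (13.4%) and in the TTS class (14.9%).

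The X chromosome had few gene-end peaks. It carried 28, or 31.0 per 1000 protein-coding genes, while the lowest autosomal value was 87.2, on chromosome 14, and the highest 135, on chromosome 8. As a share of its own non-promoter peaks the X chromosome had 2.02%, close to the 2.10% of chromosome 12. Chromosome Y had none among 7 non-promoter peaks.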
